A study of Mus musculus with 4 samples.

Results

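Expression of 10 immediate early and injury transcription factor genes (Fos, Fosb, Fosl2, Jun, Junb, Jund, Egr1, Atf3, Arc and Nr4a1) was examined in spinal motor neurons, among the 27189 gene entries listed for each library. The genes were chosen by symbol, with the lower level of Fos in G85R already known, so that the comparison of genotypes was part of the choice and is given for these genes as a description. They were part of the fit across all genes. Which of them it called is given in the last section as a description, and nothing is read from it. Of the 10 symbols, 9 were found as written. Jund was found under Jund1, which RefSeq lists as its synonym. Each gene had 1 entry.

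RNA came from motor neurons of the ventral horn, whose cell bodies were captured by laser from spinal cord sections of mice at 3 months of age, from 2 animals of the strain SOD1 YFP (wildtype 592) and 2 of the strain SOD1 G85R YFP (737), on a C57BL/6J x SJL/J background. All 4 animals carried a genomic fragment with the human SOD1 gene joined to YFP, without the mutation in wild-type and with the G85R mutation in the other strain, which also carries far more copies of the transgene, so that mutation, copy number and strain cannot be told apart. Each library was made from the 3000 to 4000 cell bodies of 1 animal, killed with ketamine and perfused with PBS, from RNA with an integrity number above 8, and cells with large aggregates were left out of the capture in G85R. No animal without a transgene was analyzed here. The values are RPKM, read numbers divided by the length of the transcript and by the mapped reads of the library, so that levels of different genes can be compared per length. An estimated 21560318 to 25186594 reads fell on genes in the 4 libraries, and the RPKM of 1 read had a median of 0.0195 to 0.0226.

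Immediate early genes are transcribed within minutes of synaptic activity, growth factors or stress, from promoters that wait with bound SRF, Elk and CREB, and their RNA decays quickly. Fos and Jun proteins pair through leucine zippers to form AP-1, and Egr1 and Nr4a1 are further factors of this first wave, while Arc encodes a synaptic protein. In motor neurons Atf3 and Jun are induced after axon injury, through the JNK pathway, and Atf3 is used as a marker of injured neurons.

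The Jun family was the most abundant of the factors. The gene levels were ordered Jund, Jun, Junb, Fos, Arc, Egr1, Atf3, Fosl2, Nr4a1 and Fosb by their mean RPKM. The ranges over the 4 libraries were apart only between Jund and Jun, between Fos and Arc, and between Nr4a1 and Fosb. Within each library Jun was also above Junb, and Fosl2 above Nr4a1. The order of the remaining neighbors changed between libraries.

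**Figure D1:**
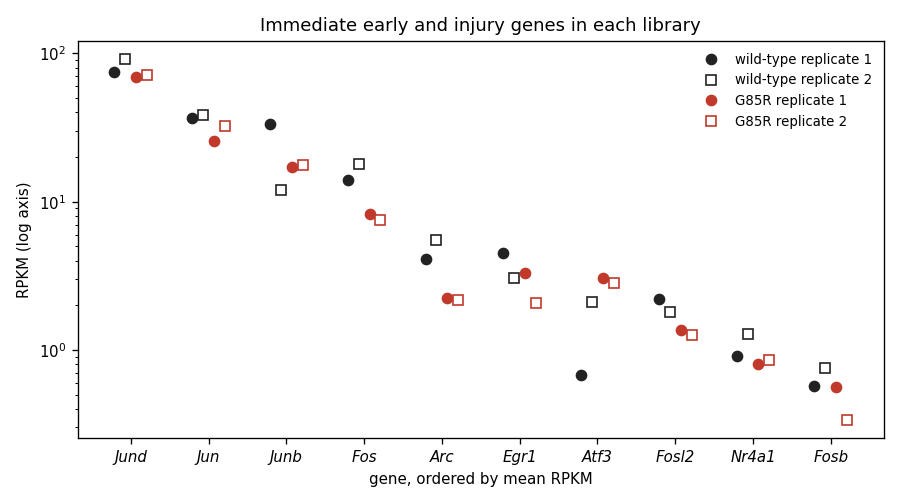
RPKM (log axis) of the 10 genes in each of the 4 libraries, wild-type in black and G85R in red, with circles for replicate 1 and squares for replicate 2. Fos, Arc and Fosl2 lie clearly lower in both G85R libraries, Atf3 lies higher, and Junb and Atf3 are far apart between the wild-type replicates.

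In G85R, Fos and Arc were at about 0.5 of their wild-type level and Fosl2 at 0.674, while Atf3 was 2.33-fold higher. For 7 of the 10 genes both G85R values were lower than the lowest wild-type value, and for 1, Atf3, both were higher than the highest. Over the 15953 entries above 0 in every library, this separation was found with lower values for 23.6% and with higher values for 17.3%. The mean RPKM of 8 of the 10 genes reached 1, the minimum for testing, and of these 8 the libraries of the genotypes were apart for 6, with lower values in G85R for 5 and higher for 1. The same was found for 41.2% of all 11530 tested genes, with lower values in G85R for 23.9% and higher for 17.3%. The median log2 fold change of the 8 genes, on log2(RPKM + 0.1), was -0.43, compared with -0.02 for all tested genes. It was -0.73 without wild-type replicate 2 and -0.30 with a minimum mean RPKM of 5. Since the genotypes had been compared in choosing the genes, nothing is read from these counts. In RNA from pooled cells, fewer cells with a transcript and less of it per cell cannot be told apart.

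Fos (Entrez Gene 14281), at 86814840 to 86818223 of the plus strand of chromosome 12 in NCBIM37, the assembly that UCSC names mm9, encodes the partner that gives AP-1 its inducible part. Its RPKM was 14.1 and 18.0 in wild-type replicates 1 and 2 and 8.27 and 7.55 in G85R replicates 1 and 2. All values of G85R were below those of wild-type, and the gap between genotypes was larger than the gap between replicates. Means were 16.1 ± 2.78 for wild-type and 7.91 ± 0.509 for G85R (SD, n = 2 animals per genotype). These values rested on an estimated 862 and 1172 reads in wild-type, against 462 and 448 in G85R. Expressed as a log2 fold change the difference was -1.0, with a standard error of 0.19 from the spread between replicates, and it ranged from -1.18 to -0.83 when the pseudocount or the scaling was changed or 1 library was left out.

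The other Fos proteins also pair with Jun but lie far lower. Fosl2 (14284), at 32438845 to 32460204 of chromosome 5 (plus strand), encodes Fra-2, which tends to appear later and last longer than Fos. Its RPKM was 2.19 and 1.81 in wild-type, while G85R had 1.36 and 1.26, without overlap, with a log2 fold change of -0.57 (standard error 0.14). Fosb (14282), at 19888070 to 19895394 of chromosome 7 (minus strand), had 0.571 and 0.750 in wild-type and, in G85R, 0.565 and 0.336. The highest G85R value of Fosb was below the lowest wild-type value by less than the RPKM of 1 read (0.0099). Fosb rested on 36 to 88 estimated reads per library, and its mean was below the minimum for testing. Summed over the family, the Fos genes had 16.8 and 20.6 RPKM in wild-type, against 10.2 and 9.14 in G85R, of which Fos made up 81.1% to 87.6%.

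Jund (entry Jund1), at 73221638 to 73224515 of chromosome 8 (plus strand), is known as the Jun gene that cells express most steadily. It had 74.4 and 92.1 RPKM in wild-type, while G85R had 69.7 and 71.2. The log2 fold change was -0.23, with a standard error of 0.15. The values did not overlap, but the wild-type replicates differed by more than the genotypes did. Jun (16476), at 94715725 to 94718913 of chromosome 4 (minus strand), encodes the Jun protein that JNK phosphorylates. Its RPKM was 36.4 and 38.5 in wild-type and, in G85R, 25.8 and 32.6, again without overlap, with a log2 fold change of -0.36 (standard error 0.17).

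Junb (16477), at 87500811 to 87502617 of chromosome 8 (minus strand), encodes a Jun protein that often restrains c-Jun. Its RPKM was 33.2 and 12.0 in wild-type, against 17.2 and 17.8 in G85R, so that both G85R values fell between the wild-type values. The log2 fold change was -0.19 with a standard error of 0.73, and it was -0.92 without wild-type replicate 2 and 0.54 without wild-type replicate 1. Its direction thus turned with the wild-type library left out. The Jun family summed to 144 and 143 RPKM in wild-type and to 113 and 122 in G85R, and the Fos family was 10.5% and 12.6% of both families together in wild-type and 8.29% and 6.99% in G85R.

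Arc (11838), at 74499513 to 74503000 of chromosome 15 (minus strand), is the effector among these genes, encoding a capsid-like protein that takes part in removing AMPA receptors from synapses. Its RPKM was 4.12 and 5.51 in wild-type, while G85R had 2.24 and 2.18, from 368 and 523 estimated reads in wild-type and, in G85R, 183 and 189. Both G85R libraries lay below both wild-type libraries, as for Fos. The log2 fold change was -1.07 (standard error 0.21).

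Egr1 (13653), at 35020861 to 35024638 of chromosome 18 (plus strand), encodes a zinc finger factor that is induced along with Fos. Its RPKM was 4.53 and 3.08 in wild-type, against 3.30 and 2.08 in G85R. The genotypes overlapped and the replicates were as far apart as the genotypes, with a log2 fold change of -0.50 (standard error 0.42). Nr4a1 (15370), at 101097277 to 101105223 of chromosome 15 (plus strand), encodes the orphan nuclear receptor Nur77. It had 0.905 and 1.28 RPKM in wild-type, while G85R had 0.807 and 0.861, from 53 to 98 estimated reads per library. The values of Nr4a1 did not overlap, but they were set apart by 0.0439 RPKM, which is the worth of a few reads.

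Atf3 (11910), at 192994175 to 193007219 of chromosome 1 (minus strand), encodes the factor that neurons switch on after axon injury. It was the 1 gene of the group with a higher mean in G85R. Its RPKM was 0.675 and 2.12 in wild-type and, in G85R, 3.05 and 2.85, from 39 and 130 estimated reads in wild-type, against 161 and 160 in G85R. Both G85R values were above both wild-type values, and wild-type replicate 1 stood far below the other 3 libraries. The log2 fold change was 1.22 with a standard error of 0.76. It was 0.46 without wild-type replicate 1 and 1.98 without wild-type replicate 2, so that its size rested on 1 wild-type library.

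**Figure D2:**
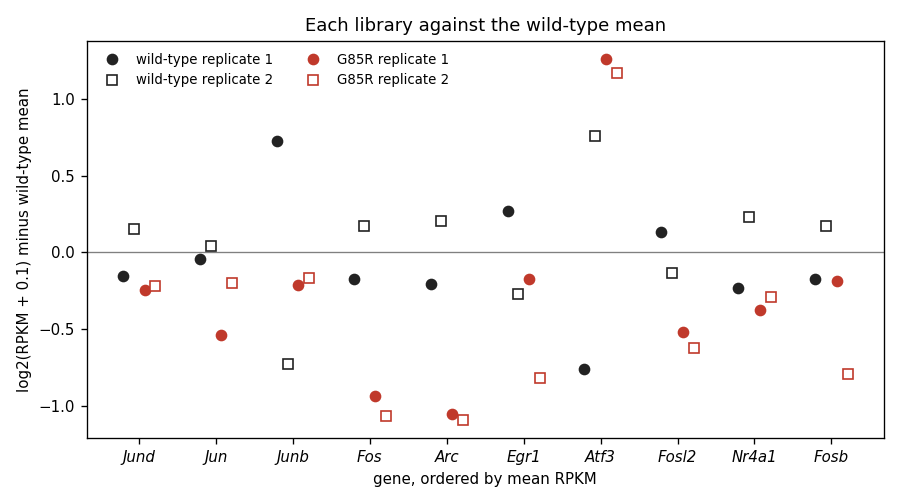
Difference of each library from the wild-type mean, on log2(RPKM + 0.1), for the 10 genes, wild-type in black and G85R in red, with circles for replicate 1 and squares for replicate 2. Both G85R libraries lie about 1 below the wild-type mean for Fos and Arc and more than 1 above it for Atf3, where the wild-type replicates themselves lie 1.52 apart, and the wild-type replicates of Junb lie 1.47 apart.

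The spread between animals of the same genotype was not used in choosing the genes. The gap between the wild-type replicates was 1.52 for Atf3 and 1.47 for Junb on the log2 scale, compared with a median of 0.156 and a 95th percentile of 0.561 over all tested genes. These were 2 of the 8 tested genes above that percentile, where 5.00% of all tested genes lie. Among tested genes within 2-fold of the same mean RPKM, the gap of Junb was at percentile 99.7 and that of Atf3 at 99.3. They did not deviate together, since wild-type replicate 1 held the higher Junb and the lower Atf3. In G85R only Egr1 of the 8 exceeded the 95th percentile of 0.556, where again 5.00% of tested genes lie, with a gap of 0.64. The G85R replicates differed by 0.13 for Fos, 0.09 for Atf3 and 0.04 each for Arc and Junb.

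Promoters of immediate early genes are known for elements through which cAMP, calcium and growth signals reach them. RefSeq promoter sequences (GRCm38.p6, the 250 bases before the start site) were given for 8 of the 10 genes, all but Egr1 and Arc. The full cyclic AMP response element TGACGTCA was found in 0 of the 8 and in 1.55% of all 32851 promoters, searched on both strands as were the other motifs. Its half-site TGACG, which the full element contains, was found in 5 of the 8 (Fos, Fosb, Junb, Nr4a1 and Atf3) and in 17.8% of all promoters. The AP-1 site TGANTCA was found in 0 of the 8 and 6.75% of all, the CArG box of SRF in 0 and 1.47%, the EGR site GCGGGGGCG in 3 (Fosb, Fosl2 and Nr4a1) and 2.57%, and the TATA box TATAAA in 1 (Fos) and 12.4%. These are matches of letters in a short window, so elements outside the 250 bases, or in Egr1 and Arc, were not seen. A count of 0 thus does not show that a gene lacks the element, and binding was not measured. The half-sites nearest to the start site are shown because they are the element shared by Fos and Atf3, which differed in opposite directions between the genotypes. Capitals mark the half-site, read on the gene's strand, where cgtca is its reverse complement.
Fos (chr12:85473812-85473841, plus strand): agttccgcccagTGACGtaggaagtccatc
Fosb (chr7:19310088-19310117, minus strand): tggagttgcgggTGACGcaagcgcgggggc
Junb (chr8:84978837-84978866, minus strand): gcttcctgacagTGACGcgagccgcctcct
Nr4a1 (chr15:101266794-101266823, plus strand): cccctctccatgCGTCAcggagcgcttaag
Atf3 (chr1:191183334-191183363, minus strand): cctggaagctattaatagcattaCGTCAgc
The half-site shown begins 66 bases before the start in Fos, 60 in Fosb, 106 in Junb, 40 in Nr4a1 and 7 in Atf3.

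The 5 tested genes whose profile over the 4 libraries was nearest to that of Fos were C330016O10Rik, AK132299, Arc, Tjap1 and Cdc2a, by the Euclidean distance of log2(RPKM + 0.1) after centering each gene. Their distances ranged from 0.059 for C330016O10Rik to 0.127 for Cdc2a, with 0.104 for Arc. The median over the other 11529 tested genes was 1.04. This median is no measure of usual likeness, since even a gene with equal values in all libraries lies far from Fos. The distances largely restate the genotype difference of Fos, which was part of the choice. C330016O10Rik had 5.16 and 6.93 RPKM in wild-type, against 3.10 and 2.89 in G85R. Arc was the 1 gene of the group among the nearest profiles. With 4 libraries, likeness of this kind is a description.

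Genes of the same pathways outside the group were examined in 6 lists, together 142 genes of which 113 were tested. With limma, 1 of the 113 had an adjusted p under 0.05, with lower RNA in G85R, and 0 had higher RNA. Of all tested genes 0.642% were called, 0.373% lower and 0.269% higher in G85R. At an unadjusted p under 0.05 there were 18 genes (10 lower and 8 higher), and this held for 11.0% of all tested genes. The median log2 fold change of each list was between -0.09 and 0.03, near the -0.02 of all tested genes.

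**Figure D3:**
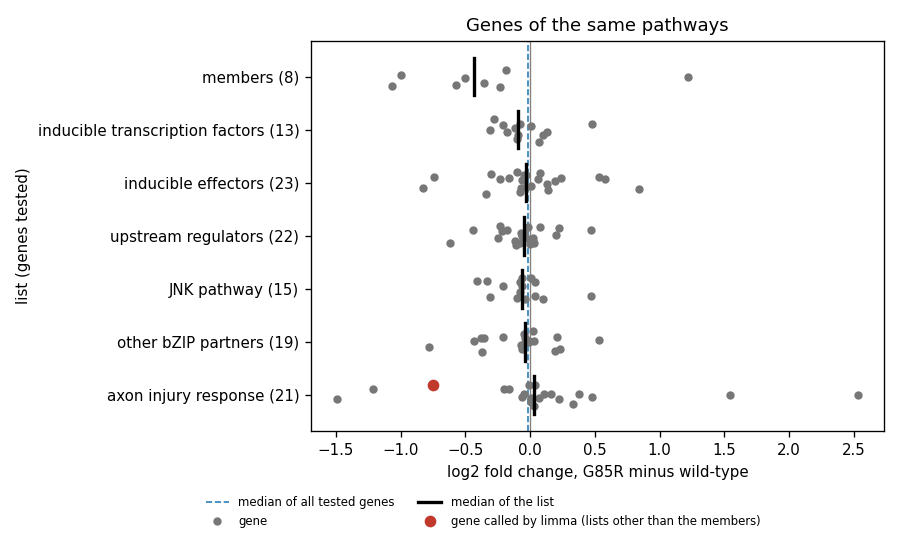
Log2 fold change of each tested gene (G85R minus wild-type, on log2(RPKM + 0.1)) in the 8 tested genes of the group, labelled members, and in the 6 pathway lists, with a black bar for the median of a list and a dashed line for the median of all tested genes. The medians of the 6 lists lie near 0, and that of the group is -0.43 (-0.73 without wild-type replicate 2). The genotypes had been compared in choosing the group, so nothing is read from its median. The called gene of the lists, Tnfrsf12a, is marked in red.

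Other inducible transcription factors were mostly low, with 13 of 21 tested. Of these 13, 0 were called in either direction and the median log2 fold change was -0.09 (-0.18 with no minimum mean RPKM). The closest relatives of the group, named after their values were seen, were among the lowest and were not tested. Fosl1 had at most 0.0663 RPKM in any library, Nr4a3 0.102, Egr3 0.134, Egr4 0.199 and Nr4a2 0.583, and Egr2 was listed at 0 in all 4. Apart from Egr2, these relatives had lower means in G85R. Their log2 fold changes were -0.56 for Fosl1, -0.57 for Nr4a3, -0.43 for Egr3, -0.80 for Egr4 and -0.60 for Nr4a2. The genotypes overlapped for Egr3 and Nr4a2, and those of Nr4a3 were set apart by 0.0146 RPKM, less than 1 read (0.0264). The values rested on at most 38 estimated reads per library. Lower values without overlap were found for 23.6% of the entries above 0 in every library. A negative log2 fold change was found for 6312 of all 11530 tested genes. Of the 13 tested genes of this list, 8 were lower and 5 higher in G85R. The most abundant were Bhlhe40, a repressor of the circadian clock, with 22.9 and 23.4 RPKM in wild-type, while G85R had 18.0 and 20.3, and Klf6, with 7.42 and 6.56 in wild-type and, in G85R, 6.17 and 6.90. The lowest log2 fold change was -0.31 for Maff, a small Maf factor (adjusted p = 0.676 from limma), and the highest was 0.48 for Klf2 (adjusted p = 0.417 from limma), a flow-responsive factor of endothelium.

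Among inducible effectors, a mixed list that includes kinases, phosphatases and secreted proteins, 23 of 29 were tested and 0 were called in either direction. The median was -0.03. Rgs2, a brake on G protein signals, and Ier3 were the most abundant. Rgs2 had 30.9 and 28.9 RPKM in wild-type, against 30.7 and 32.3 in G85R. The largest differences lay on both sides. Dusp4, a phosphatase of MAP kinases, had 1.51 and 1.55 in wild-type, while G85R had 1.06 and 0.625 (log2 fold change -0.83, adjusted p = 0.367 from limma). Rasd1, a small G protein induced by glucocorticoids, had 3.60 and 4.65 in wild-type and 7.42 in both G85R libraries (0.84, adjusted p = 0.0965 from limma). Sgk1, another glucocorticoid-induced gene, and Bdnf, the neurotrophin that activity induces, were named after their values were seen. Sgk1 had 15.3 and 15.1 in wild-type and, in G85R, 22.4 and 23.3 (0.58, adjusted p = 0.0892 from limma). Bdnf had 2.04 and 2.08 in wild-type, against 1.10 and 1.29 in G85R (-0.74, adjusted p = 0.233 from limma). Over the alternatives the adjusted p of Rasd1 ranged from 0.00793 to 0.244 and it was called without wild-type replicate 2 and with the replicate block. Sgk1 was called with the replicate block.

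The kinases and resident factors that act on these promoters had 22 of 25 genes tested and 0 called in either direction, with a median of -0.05. Mapk3, a kinase of the growth factor pathway, had 70.9 and 79.2 RPKM in wild-type, while G85R had 89.2 and 83.4. Camk4, a calcium-dependent kinase that phosphorylates CREB, had the lowest log2 fold change, with 2.99 and 2.56 in wild-type, against 1.68 and 1.86 in G85R (-0.62, adjusted p = 0.280 from limma). Elk1, the partner of SRF, had the highest, with 2.85 and 3.40 in wild-type, while G85R had 5.06 and 3.76 (0.47, adjusted p = 0.435 from limma).

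In the JNK pathway, which leads from a damaged axon to Jun and Atf3, 15 of 16 genes were tested, 0 were called in either direction and 0 had an unadjusted p under 0.05, with a median of -0.06. Scaffolds of JNK were abundant. Mapk8ip3 had 135 and 167 RPKM in wild-type and, in G85R, 149 and 158, and Mapk8ip2 had 130.0 and 138 in wild-type, against 133 and 128 in G85R. The log2 fold changes ran from -0.41 for Map3k1 to 0.47 for Spag9, a further scaffold. Spag9 had 57.0 and 32.6 in wild-type, while G85R had 63.4 and 56.5, with an adjusted p of 0.544 from limma. Over the alternatives this ranged from 0.0306 to 0.936, under the threshold only without wild-type replicate 1, which leaves the low value alone in its genotype. Map3k12, the axonal injury kinase DLK, was named after its values were seen and had 17.3 and 17.8 in wild-type and, in G85R, 17.2 and 16.4.

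Of 23 other leucine zipper factors, 19 were tested and 0 were called in either direction, with a median of -0.04. Nfe2l1, which drives proteasome genes, was the most abundant, with 152 and 149 RPKM in wild-type, against 177 and 176 in G85R (log2 fold change 0.23, adjusted p = 0.423 from limma). Atf4, the factor of the integrated stress response, had 92.3 and 83.0 in wild-type, while G85R had 91.8 and 86.0. Batf3, which pairs with Jun proteins, had the lowest log2 fold change at -0.78, and Cebpa the highest at 0.53, with adjusted p of 0.309 and 0.564 from limma.

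In the list of axon injury genes, 21 of 28 were tested, with 1 called lower and 0 called higher and a median of 0.03. Values on both sides were found. Tnfrsf12a, the receptor Fn14 that promotes neurite growth, fell from 50.4 and 54.1 RPKM in wild-type to 31.9 and 30.2 in G85R, or -0.75 ± 0.10 as log2 fold change and its standard error, with an adjusted p of 0.0418 from limma. Over the alternatives the log2 fold change ranged from -0.80 to -0.70 and the adjusted p from 0.001 to 0.121, and the call was lost without wild-type replicate 2, without either G85R library, after quantile normalization, with a minimum mean RPKM of 5, with no minimum and without the intensity trend. Gal, the neuropeptide galanin, lay on the same side, with 4.31 and 4.24 in wild-type and, in G85R, 1.55 and 2.07 (-1.21, adjusted p = 0.0542 from limma), and was named after its values were seen. It was called without G85R replicate 2, with a pseudocount of 1, with robust estimation and with the replicate block, and its adjusted p ranged from 0.00394, with that block, to 0.194. Nts, neurotensin, had the lowest log2 fold change, with 25.6 and 21.6 in wild-type, against 5.93 and 11.6 in G85R (-1.49, adjusted p = 0.101 from limma), and was called without either G85R library and with the replicate block, with adjusted p ranging from 0.000195 to 0.286.

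On the other side, Npy had 1.38 and 1.12 RPKM in wild-type, while G85R had 2.95 and 19.7 (log2 fold change 2.53, adjusted p = 0.274 from limma), so that its size came from G85R replicate 2. It was called only when G85R replicate 1 was left out, in addition to the fit with a replicate block, and its adjusted p ranged from 1.06e-05 to 0.653. Sprr1a, which is nearly absent from intact neurons and appears after axotomy, was named after its values were seen. It had 1.56 and 7.29 in wild-type and, in G85R, 9.48 and 10.7 (1.54, adjusted p = 0.417 from limma), and was called without wild-type replicate 2 and with the replicate block, with adjusted p ranging from 0.000354 to 0.722. As for Atf3, the lowest value of Sprr1a was in wild-type replicate 1. The abundant growth cone genes Tubb3 and Stmn2 had log2 fold changes of 0.07 and 0.01.

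Markers of motor neurons were abundant, with Chat, the acetylcholine synthesis enzyme, at 49.6 to 81.2 RPKM, and all 8 motor neuron markers were above 0 in each library. Chat and Gfap were named after their values were seen. The log2 fold changes of the 8 motor neuron markers ran from -0.46 to 0.04, with a median of -0.21 and -0.36 for Chat. The summed level of the 8 was 2472 and 2731 RPKM in wild-type, against 2205 and 2575 in G85R. Of the 8, 3 were lower in G85R without overlap, as were 23.6% of the entries above 0 in every library. Markers of other cells of the ventral horn were present too. The 12 microglial markers summed to 19.0 and 20.5 in wild-type and to 47.0 and 21.9 in G85R, and the 8 astrocyte markers to 453 and 459 in wild-type, while G85R had 629 and 539, of which S100b made up 412 and 414 in wild-type and, in G85R, 498 and 483. Gfap, the astrocyte filament, had 11.5 and 17.1 in wild-type, against 91.9 and 28.4 in G85R. Its log2 fold change of 1.86 was the highest of the 8 astrocyte markers. Their median was 0.27, with 7 higher and 1 lower in G85R. Of these lists, 5 of 12 microglial and 3 of 8 astrocyte markers were higher in G85R without overlap, as were 17.3% of the entries above 0 in every library. With limma, 9 of the 12 microglial and all 8 astrocyte markers were tested and 0 were called. None of either list was at 0 in any library.

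The 5 interneuron markers summed to 186 and 191 RPKM in wild-type, while G85R had 217 and 200. The 8 oligodendrocyte markers summed to 938 and 880 in wild-type and, in G85R, 1120 and 858. The 9 endothelial markers summed to 14.4 and 14.2 in wild-type, against 13.4 and 12.3 in G85R. Without overlap, 2 interneuron markers and 1 oligodendrocyte marker were higher in G85R, and 1 endothelial marker was lower. The shares of entries above 0 in every library were 17.3% higher and 23.6% lower. Of the 5 red blood cell markers, 3 were found, with sums of 1.82 and 2.10 in wild-type, while G85R had 11.5 and 10.8, and Hbb-b1, a globin gene, was called higher (log2 fold change 2.42, adjusted p = 0.00173 from limma). The part of other cells in the levels of these genes was not tested.

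**Figure D4:**
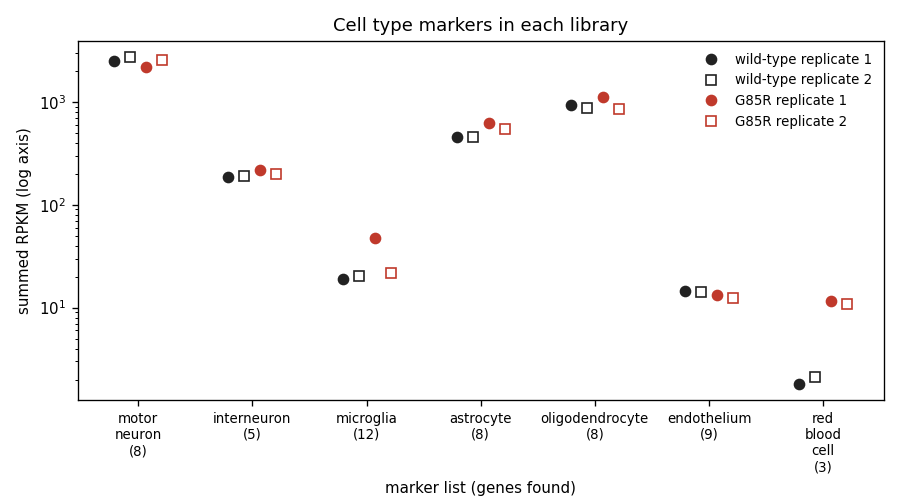
Summed RPKM (log axis) of 7 lists of cell type markers in each library, wild-type in black and G85R in red, with circles for replicate 1 and squares for replicate 2. Microglial markers are highest in G85R replicate 1, at 47.0, red blood cell markers lie higher in both G85R libraries, and motor neuron markers lie between 2205 and 2731 in all 4.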

How the data were processed

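The authors mapped single-end reads with Bowtie 0.12.3 to mm9 and a splice database from UCSC Known Genes and quantified each UCSC gene cluster with Cufflinks, and the deposited values are RPKM, with a second column in which each gene has 1 more read. Reads were single-end per the methods, while the labels name a paired-end library protocol, and the strand of polyadenylated RNA is not given in the sources used here. The column for mapped reads was empty. Estimated reads are the RPKM divided by the RPKM of 1 read (the difference between both deposited values) and are not exact counts.

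Genotypes, 2 libraries each, were compared in R 4.3.3 by limma 3.58.1 (lmFit and trended eBayes) on log2(RPKM + 0.1), which understates the change of low genes, for the 11530 entries with a mean RPKM of at least 1, with Benjamini-Hochberg adjustment over all of them and a threshold of 0.05. The fit was tested on simulated data, where it called 75 of 100 changes of 2-fold, 97 of 100 of 4-fold and 9 of 11330 unchanged genes. The simulated noise was normal, with a spread shared by genes of similar level, unlike genes with widely spaced replicates. Smaller changes were not simulated, so a list with 0 calls is not shown to be unchanged. The log-linear likelihood ratio test named by the study was an alternative, on that second column rounded, since RPKM are not counts. Standard errors of the 10 genes come from their own replicates.

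The genes and lists were chosen with earlier results of these data known. Named genes were, in each list, those called, the 2 most abundant and those with the lowest and highest log2 fold change, the 5 profiles nearest to Fos and the most abundant marker of a cell type. The values of 1 gene that this rule names are not reported here. Lists were matched by symbol, by an older symbol (7 genes) or by a RefSeq synonym (4, Jund included), and 2 globin genes were not found. Alternatives were other pseudocounts, scalings, filters and variance models, a replicate block, the values with 1 read added, a threshold of 0.1, and leaving out each library. Motifs were searched on both strands of RefSeq promoters (GRCm38.p6), and gene positions are from GENCODE on NCBIM37. Python 3.11.15 with scipy 1.17.1, pandas 2.3.3 and numpy 2.4.6 gave the other values, and matplotlib 3.10.9 the plots.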

Additional observations from a re-analysis of the deposited data

How the results depend on the processing

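Over all genes, limma called 74, and 78 to 188 with 1 library left out (188 without G85R replicate 2), 39 after quantile normalization, 17 with a minimum mean RPKM of 5, 18 with no minimum, 49 without the intensity trend and 142 at an adjusted p under 0.1. With the replicate block it called 527. The labels do not say what replicates of the same number share, and the deviations of same-numbered libraries correlated with r = 0.22 across genes, which with 2 pairs does not establish pairing. Nothing is read from calls among the group, since the genotypes had been compared in choosing its genes. Of all 11530 tested genes, 0.642% were called in the main fit. Of the 8 tested genes of the group, 1 was called, Fos, whose lower level was part of the choice of the genes. This number was 0 after quantile normalization, with a minimum mean RPKM of 0.1 or 5, with no minimum, without the trend, or in the log-linear likelihood ratio test. It was 2, Fos and Arc, with robust estimation, with the replicate block, without wild-type replicate 1 or at an adjusted p under 0.1, and 1 to 2 with 1 library left out. Without wild-type replicate 2 these were Junb and Atf3, and no longer Fos. Of the 113 tested pathway genes, 1 was called. It was 0 after quantile normalization, with a minimum of 5, with no minimum or without the trend, 2 with a pseudocount of 1, with robust estimation or with any 1 library left out, 4 at an adjusted p under 0.1 and 8 with the replicate block (Tnfrsf12a, Gal, Nts, Npy, Sprr1a, Rasd1, Sgk1 and Gadd45g). Tnfrsf12a was among the calls without wild-type replicate 1 but not without any other single library. Of the 10 genes of the group, 7 had lower values in G85R without overlap, beside 23.6% of the entries above 0 in every library. With 1 library left out, 7 to 9 had lower and 1 to 2 had higher values without overlap. The share over all entries was not computed with 1 library left out, so nothing is read from these numbers. Separation is easier to reach with fewer libraries. The median log2 fold change of the 8 tested genes of the group, -0.43, was -0.30 with a minimum of 5 and ranged from -0.73 to -0.38 with 1 library left out. With 1 library left out, the lone library is assumed to vary like the other genotype. With 2 libraries per genotype an exact permutation test of 1 gene could not pass the threshold. Depth limits Fosb, Nr4a1 and Atf3, with 36 to 161 estimated reads per library. Of the values of these counts and the median under other settings, 33 moved, 43 stayed near the reported one and 0 reversed. Among the values of single genes and lists, 237 stayed near it and 29 moved. The fold change of a gene counted as near when it moved by less than the spread between that gene's own replicates. Without wild-type replicate 1, Junb (0.54) and Atf3 (0.46) thus counted as near, although Junb turned sign. Medians near 0 also turned sign for inducible effectors, other leucine zipper factors and axon injury genes. No value called in the main fit turned sign. The cause of these changes was not tested.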
